A study of Mus musculus with 6 samples.

Results

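The genes described here encode the translation initiation factors, read as total RNA in mouse splenic B cells with and without retroviral Sox2. The rows of the deposited count table whose gene symbol begins with Eif1 to Eif6 were taken, leaving out the eIF2 kinases (Eif2ak), which gave 61 of 37620 genes. Of these, 57 had at least 10 counts summed over the 6 libraries, and 54 passed the filter on low counts and were tested. The 4 rows under 10 counts were Eif2s3y with 1 count, Eif3s6-ps2 with 7 counts, and Eif2c5 and Eif4e1b with 0 counts. The 3 rows with at least 10 counts that were not tested were Eif4ebp3, Eif5al3-ps and 1 of the 2 rows named Eif4e3 (ENSMUSG00000030068). Symbols match roles imperfectly: 5 of the 57 rows are Eif2c genes, which encode Argonaute proteins of the small RNA pathway, and 3 are pseudogene symbols.

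Both groups were B cells from spleens of C57Bl/6 mice aged 4 months, and were stimulated in culture by 1 µg/ml anti-CD40 together with 12.5 µg/ml IL-4. Anti-CD40 stands in for T cell help and, with IL-4, drives resting B cells into growth and division. Cells were spin-infected with retrovirus at 24 h and 48 h of culture, with the vector pMIR alone (3 libraries) or with pMIR-Sox2 (3 libraries), and sorted on mCherry at 96 h. Controls therefore also carried a retroviral vector, and Sox2, a pluripotency transcription factor, came from the vector. The labels do not say whether replicates were separate animals, and the spread that the p-values rest on may therefore be technical.

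In cap-dependent initiation, eIF2 bound to GTP brings the initiator methionyl-tRNA to the small ribosomal subunit, helped by eIF1, eIF1A, eIF3 and eIF5. The cap-binding complex eIF4F (the cap binder eIF4E, the scaffold eIF4G and the helicase eIF4A) loads this assembly on the mRNA, and it scans to the start codon. There eIF5 promotes GTP hydrolysis by eIF2, eIF5B joins the large subunit, and eIF2B recharges eIF2 with GTP. The pathway is known as a main target of growth control in activated lymphocytes, through mTORC1, which inactivates the eIF4E-binding proteins, and through MYC.

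Gene counts were 21421769 to 27692437 per pMIR library and 17153805 to 20770447 per pMIR-Sox2 library. Sox2 had 20, 7 and 37 counts in pMIR and 21528, 14536 and 10763 counts in pMIR-Sox2. On a principal component with 83.4% of the variance, pMIR lay at −54.9, −54.2 and −52.1 and pMIR-Sox2 at 57.9, 68.3 and 35.0, the last (replicate 3) being nearest to the controls. The B cell markers were present in all libraries. Their summed level was 4180 to 5293 CPM (gene counts relative to the size of the library) in pMIR and 2706 to 3401 CPM in pMIR-Sox2. They did not move together: 5 of 8 fell, 1 rose and 2 did not pass (Cd79a and Blnk). The riser was Pax5, at 187 ± 15.5 CPM in pMIR and 347 ± 71.7 CPM in pMIR-Sox2 (SD, n = 3). Of all genes tested, 20% fell and 23.2% rose by the edgeR test described below, and the marker counts here are by the same test. Of 10 T and NK cell markers, 2 were tested and Thy1 rose. The marker sum was 221 to 283 CPM in pMIR and 327 to 396 CPM in pMIR-Sox2, nearly all of it from Thy1 and Lck. Thy1 had means of 195 CPM in pMIR and 305 CPM in pMIR-Sox2. Lck, which did not pass, had 59.4 and 47.8 CPM. Cd3d, Cd3e, Cd3g, Cd4, Cd8a, Cd8b1 and Klrb1c had at most 5 counts in any library, and Ncr1 was at 0. Of 10 myeloid markers, 5 were tested, 3 rose (Emr1, Itgam and Lyz2) and 1 fell (Cd68). Emr1 had means of 18.6 CPM in pMIR and 27.4 CPM in pMIR-Sox2, and Cd68 had 17.8 and 8.18 CPM. Itgam had 0.558 and 3.79 CPM, and Lyz2, with at most 17 counts in any library, had 0.0283 and 0.653 CPM. The myeloid sum, most of it from Emr1 and Cd68, was 36.6 to 39.0 CPM in pMIR and 38.3 to 43.3 CPM in pMIR-Sox2. S100a8 and S100a9 were at 0. Of 7 erythroid markers, 1 was tested and rose (Hbb-b2). The sum was 0.848 to 1.20 CPM and 1.75 to 2.98 CPM. The part of these markers in the results below was not tested, and in bulk RNA fewer cells of a type and less RNA per cell cannot be told apart.

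More initiation factor genes were lower than higher in pMIR-Sox2. The falls included the eIF4E repressor gene Eif4ebp1, Eif1a, the eIF3 subunit genes Eif3b, Eif3c, Eif3g and Eif3i, and 3 of the 5 eIF2B subunits. The helicase genes Eif4a1 and Eif4a3, Eif5a and Eif6 fell too. The rises, beside a pair of Argonaute genes, were Eif5b and the paralogs Eif1b, Eif4e3 and Eif5a2. Among these, the calls of Eif4a1, Eif5a, Eif5b, the eIF2B gene Eif2b3 and the Argonaute gene Eif2c3 ended in some of the 11 alternative settings given below. In edgeR, at a Benjamini-Hochberg adjusted p under 0.05 over all genes tested, 20 of the 54 tested members fell (37.0%), 6 rose (11.1%) and 28 did not pass. Among the 12898 genes tested other than Sox2, 20% fell and 23.2% rose, 43.2% in either direction. Among the 4514 genes at a mean of at least 50 CPM, a mean that most members also reached, 26.1% fell and 20.05% rose. The median log2 fold change (pMIR-Sox2 over pMIR) was −0.24 over the members, −0.02 over all genes and −0.10 over the genes of at least 50 CPM. Among the tested members the deepest fall was −0.88, for Eif4ebp1. Over 3 libraries against 3, 30 members had all pMIR-Sox2 values below all pMIR values and 10 the reverse. Of all genes, 27.6% and 28.9% did so. The test above leaves out the pairing of libraries by replicate number. With that number as a block, 27 members fell, 9 rose and 18 did not pass, and all 26 calls were kept. With the block 25.7% of all genes fell and 27% rose.

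The counts depended on single libraries and on scaling. The number of falls dropped to 11 when pMIR replicate 1 was left out and to 13 when pMIR-Sox2 replicate 2 was (20.4% and 23.6% of the members tested). The share of all genes that fell dropped as well in those settings, to 13.5% and 14.7%. With library totals in place of TMM scaling (trimmed mean of M-values), 13 members fell and 9 rose (24.1% and 16.7%), and of all genes 15.96% fell and 26.5% rose. The symbols that are neither Argonautes nor pseudogenes gave 47 tested genes, of which 19 fell, 4 rose and 24 did not pass, with a median of −0.27. Together the 49 members of this kind with at least 10 counts took 15746, 14514 and 14934 CPM in pMIR and 12743, 12225 and 13748 CPM in pMIR-Sox2. All pMIR-Sox2 libraries lay below all pMIR libraries in that sum. Below, a value ± error before an adjusted p is the log2 fold change of pMIR-Sox2 over pMIR with its SE, and a number in brackets after another setting is the adjusted p under it. Exons of Eif1ad, Eif1b, Eif2a, Eif2b4, Eif2c2, Eif2d, Eif3d, Eif3j, Eif3m, Eif4a2, Eif5b and Eif6 overlap a gene on the opposite strand, whose reads may be included.

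**Figure D1:**
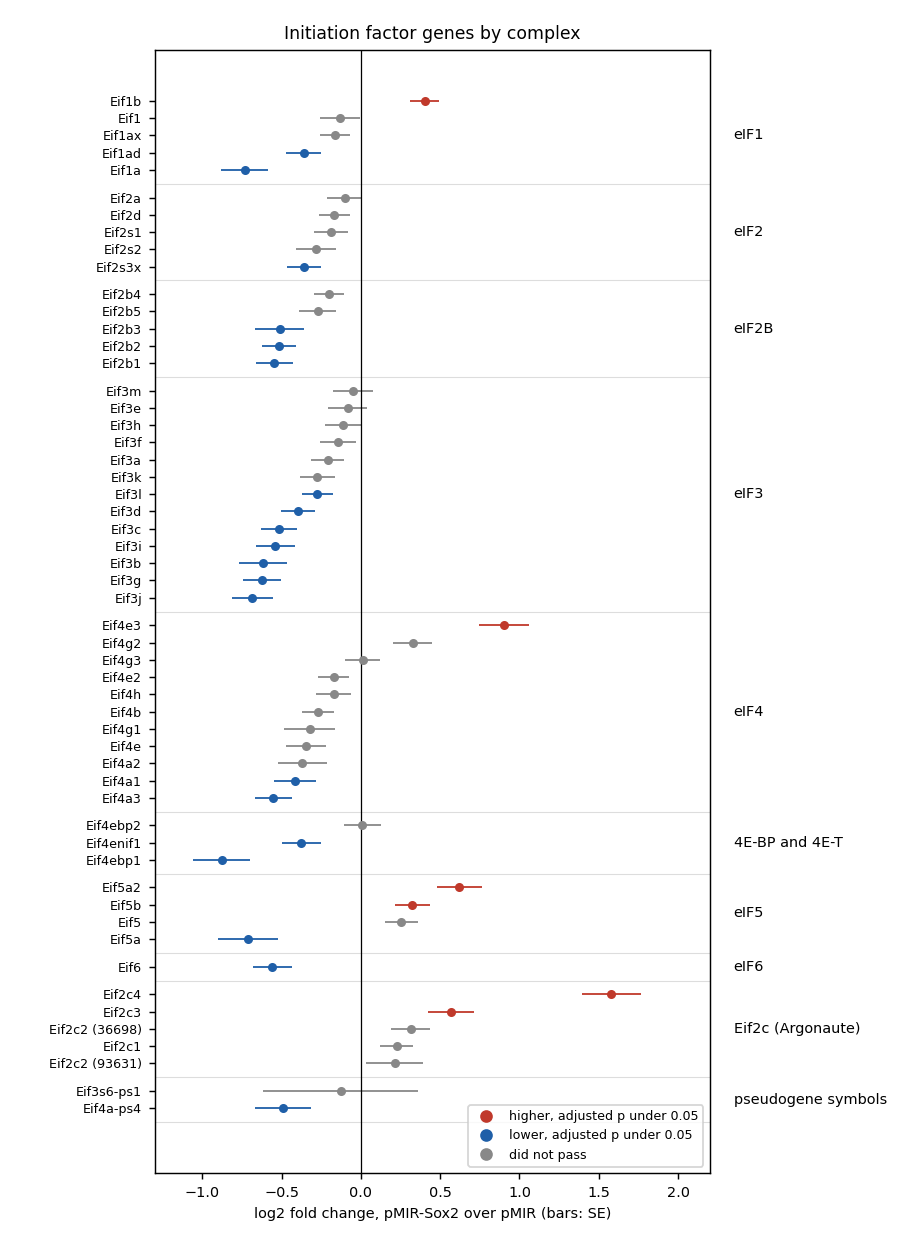
Log2 fold change of pMIR-Sox2 over pMIR for the 54 tested members, grouped by factor complex. Points are edgeR estimates and bars are SE, coloured by call; all 13 eIF3 genes lie left of 0, and the largest rise is Eif2c4 at 1.58.

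**Figure D2:**
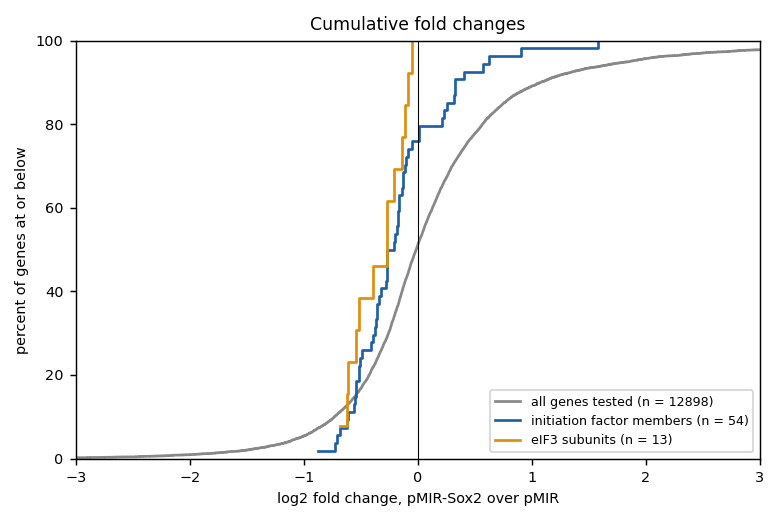
Percent of genes at or below each log2 fold change, for all 12898 genes, the 54 members and the 13 eIF3 subunit genes. The member curve lies left of the all-gene curve around its median of −0.24 and rises more steeply, and its deepest fall is −0.88.

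The small factors eIF1 and eIF1A bind the small subunit and keep it open for scanning until a start codon is met. Of 5 genes with such symbols, Eif1a and Eif1ad fell, Eif1b rose and 2 did not pass, with a median of −0.16. Over all genes, 20% fell and 23.2% rose. Eif1a, an eIF1A gene, read 138, 128 and 125 CPM in pMIR and 74.6, 63.6 and 97.3 CPM in pMIR-Sox2. All pMIR-Sox2 libraries were below all pMIR libraries, and the log2 fold change was −0.73 ± 0.15 (adjusted p = 0.00397). Its paralog Eif1ax read 153, 144 and 139.6 CPM in pMIR and 130.1, 121 and 139 CPM in pMIR-Sox2. These ranges did not overlap either, but the difference of −0.16 ± 0.10 (adjusted p = 0.203) did not pass. Eif1b, a near copy of eIF1, read 52.5, 47.8 and 49.1 CPM in pMIR and 64.5, 65.3 and 67.8 CPM in pMIR-Sox2, with the groups apart and a change of 0.40 ± 0.09 (adjusted p = 0.00738). Eif1, the most abundant gene of the group, read 476, 477 and 464 CPM in pMIR and 357, 456 and 479.8 CPM in pMIR-Sox2. Only pMIR-Sox2 replicate 1 stood clearly below the controls, and the change was −0.13 ± 0.13 (adjusted p = 0.424). Eif1ad, an eIF1A domain protein, read 87.5, 73.3 and 83.2 CPM in pMIR and 64.2, 57.4 and 68.4 CPM in pMIR-Sox2. Its groups were apart, with −0.36 ± 0.11 (adjusted p = 0.0259). That call ended with library totals only (0.0669) and without pMIR replicate 1 (0.101), pMIR replicate 3 (0.0869), pMIR-Sox2 replicate 1 (0.0629) or pMIR-Sox2 replicate 2 (0.0777).

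The eIF2 trimer carries the initiator tRNA, and the estimates of its 3 subunit genes were all negative. A negative estimate was found for 51.3% of all genes. Of the 5 genes with eIF2 symbols, Eif2s3x fell and 4 did not pass, with a median of −0.19. That share of falls, 20%, was that of all genes. Eif2s3x, on the X chromosome and encoding the GTP-binding gamma subunit, read 92.6, 82.3 and 82.1 CPM in pMIR and 72.9, 60.8 and 66.7 CPM in pMIR-Sox2. The groups did not overlap, and the change was −0.36 ± 0.11 (adjusted p = 0.0227). That call ended with library totals only (0.0703) and without pMIR replicate 1 (0.0927), pMIR replicate 3 (0.0509) or pMIR-Sox2 replicate 2 (0.0689), and 34.6% of the 50-base stretches of its transcripts also occur in other genes, chiefly the pseudogene Gm2223. Eif2s2, the beta subunit and the gene of highest CPM here, read 307, 335 and 326 CPM in pMIR and 222, 274 and 300.0 CPM in pMIR-Sox2. The pMIR-Sox2 libraries were all below the controls, at −0.28 ± 0.13 (adjusted p = 0.0966, and 0.0245 with the replicate number as a block), and it also passed without pMIR-Sox2 replicate 3 (0.0346). Eif2s1, the alpha subunit that the eIF2 kinases phosphorylate, was at 226 ± 18.6 CPM in pMIR and 199 ± 14.1 CPM in pMIR-Sox2 (SD, n = 3), with −0.19 ± 0.11 (adjusted p = 0.183). Eif2a and Eif2d, which bind initiator tRNA apart from eIF2, had −0.10 ± 0.11 (adjusted p = 0.486) and −0.17 ± 0.10 (adjusted p = 0.197).

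The exchange factor eIF2B reloads eIF2 with GTP and is the enzyme blocked by phosphorylated eIF2. Of its 5 subunit genes, 3 fell and 2 did not pass, and all 5 estimates were negative, with a median of −0.51. Over all genes, 20% fell and 51.3% had a negative estimate. Eif2b1, of the regulatory alpha subunit, read 71.1, 58.8 and 63.5 CPM in pMIR and 44.5, 39.5 and 48.5 CPM in pMIR-Sox2. Its groups lay apart, with −0.55 ± 0.12 (adjusted p = 0.00516). Eif2b2, of the regulatory beta subunit, read 95.4, 99.2 and 84.9 CPM in pMIR and 59.4, 65.2 and 70.6 CPM in pMIR-Sox2, a change of −0.52 ± 0.11 (adjusted p = 0.00449). Again all pMIR-Sox2 libraries were the lower ones. Eif2b3, of the gamma subunit, read 31.7, 25.9 and 25.97 CPM in pMIR and 21.4, 15.5 and 21.7 CPM in pMIR-Sox2, with −0.51 ± 0.16 (adjusted p = 0.0252). The groups were apart, but the call ended with library totals only (0.0511) and without pMIR replicate 1 (0.102) or pMIR-Sox2 replicate 2 (0.0664). Eif2b5, of the catalytic epsilon subunit, was the gene of highest CPM among them and read 129, 105 and 124 CPM in pMIR and 103, 88.01 and 105 CPM in pMIR-Sox2. The groups overlapped, since pMIR-Sox2 replicate 3 lay just above the lowest control, pMIR replicate 2. Its change was −0.27 ± 0.12 (adjusted p = 0.0845, and 0.021 with the replicate number as a block), and it also passed without pMIR replicate 2 (0.0414). Eif2b4, of the regulatory delta subunit, had −0.20 ± 0.09 (adjusted p = 0.11).

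The scaffold eIF3 has the most subunits of all the factors and holds the small ribosomal subunit, eIF4G and the mRNA together. Of its 13 subunit genes, 7 fell and 6 did not pass, and all 13 estimates were negative, with a median of −0.27. Of all genes, 51.3% had a negative estimate. In 10 of the 13, all pMIR-Sox2 libraries were below all pMIR libraries. Over all genes, 20% fell and 27.6% had their libraries apart in that direction. Eif3b, a scaffold subunit, read 549, 428 and 481 CPM in pMIR and 351, 252 and 347 CPM in pMIR-Sox2. The groups were apart, and the change was −0.62 ± 0.15 (adjusted p = 0.0106). Eif3g, an RNA-binding subunit, read 204, 172 and 182 CPM in pMIR and 118, 107 and 138 CPM in pMIR-Sox2. All pMIR-Sox2 libraries were lower, at −0.62 ± 0.12 (adjusted p = 0.00319). Eif3c, a core subunit and among the most abundant in CPM, read 703, 651 and 651 CPM in pMIR and 463, 424 and 514 CPM in pMIR-Sox2. All 3 controls stood above all 3 pMIR-Sox2 libraries. Its change was −0.52 ± 0.11 (adjusted p = 0.00546). Eif3j, a loosely bound subunit, read 57.05, 48.99 and 50.6 CPM in pMIR and 30.9, 28.7 and 37.96 CPM in pMIR-Sox2, with the groups apart and −0.68 ± 0.13 (adjusted p = 0.00268). Its value is uncertain, as 50.9% of its 50-base stretches also occur in other genes, chiefly the copy Eif3j2.

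Eif3i, which binds next to Eif3b and Eif3g, read 373, 358 and 369.8 CPM in pMIR and 218, 246 and 292 CPM in pMIR-Sox2. Here too the groups were apart, with −0.54 ± 0.12 (adjusted p = 0.00672). Eif3d, which can bind the cap of some mRNAs, went from 326 ± 22.2 to 248 ± 18.9 CPM (SD, n = 3), at −0.40 ± 0.11 (adjusted p = 0.0147). The call ended without pMIR replicate 1 (0.0675), and 37.2% of its 50-base stretches are shared, chiefly with the antisense gene Gm17638. Eif3l had −0.27 ± 0.10 (adjusted p = 0.0497). It was the nearest to the threshold, and its call ended with library totals only (0.127), with no filter on low counts (0.137) and without pMIR replicate 1 (0.151), pMIR replicate 2 (0.078), pMIR replicate 3 (0.135), pMIR-Sox2 replicate 1 (0.0956) or pMIR-Sox2 replicate 2 (0.129). The 6 subunits that did not pass were Eif3a, Eif3e, Eif3f, Eif3h, Eif3k and Eif3m. Eif3f read 662, 679 and 672 CPM in pMIR and 527, 657 and 637 CPM in pMIR-Sox2. In pMIR-Sox2, replicate 1 was far lower than the other 2, which lay just below the controls, and the change was −0.14 ± 0.12 (adjusted p = 0.338). Eif3a, the largest subunit, was at 612 ± 26.9 CPM in pMIR and 529 ± 38.9 CPM in pMIR-Sox2 (SD, n = 3), with −0.21 ± 0.11 (adjusted p = 0.14), and Eif3k had −0.27 ± 0.11 (adjusted p = 0.0732, and 0.0248 with the replicate number as a block). Eif3h had −0.11 ± 0.11 (adjusted p = 0.445), Eif3e −0.08 ± 0.12 (adjusted p = 0.606) and Eif3m −0.05 ± 0.13 (adjusted p = 0.76). The sign of Eif3e turned without pMIR-Sox2 replicate 1, and that of Eif3m turned there and with library totals.

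The subunits can be grouped by where they sit in the complex, a grouping made after their values were seen. Of a, b, c, g and i (the core complex in budding yeast, where j is a loosely bound further subunit), 4 of 5 fell, with a median of −0.54. Of e, f, h, k, l and m (most of the remaining ring of the mammalian complex), 1 of 6 fell, with a median of −0.13 and a range of −0.27 to −0.05. Of d and j, 2 of 2 fell. For comparison, 20% of all genes fell, a share near that of e, f, h, k, l and m. The difference between these groups was not tested. The libraries also ranked differently. pMIR-Sox2 replicate 1 was the lowest of its group for 6 subunits (e, f, h, i, k and m) and replicate 2 for the other 7. Per kilobase of exon, Eif3h was highest in pMIR at 274 CPM per kb, then Eif3f at 232 and Eif3c at 190, and Eif3j was lowest at 8.95 CPM per kb. In pMIR-Sox2 these levels were 253, 210, 133 and 5.58 CPM per kb.

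**Figure D3:**
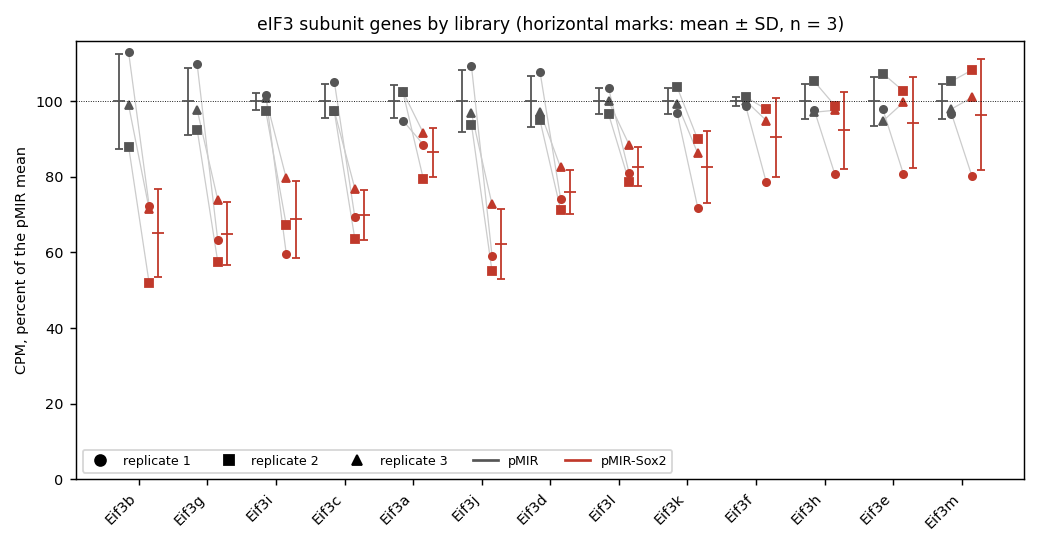
CPM of each eIF3 subunit gene by library as a percent of its pMIR mean, with lines joining libraries of the same replicate number and marks for mean ± SD (n = 3). Eif3b, Eif3g, Eif3i and Eif3c lie well below 100% in all 3 pMIR-Sox2 libraries, whereas replicates 2 and 3 of Eif3e, Eif3f, Eif3h and Eif3m lie near the controls.

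Promoter sequences are shown for 4 factor genes discussed below that hold the letters CACGTG, the E-box bound by MYC and related factors. They were picked by hand, leaving out stretches that overlap an exon of the gene itself. Eif4e and Eif4h, also discussed below, hold the letters too and are not shown. Myc itself went from 414 ± 87.2 to 209 ± 33.9 CPM (SD, n = 3), a log2 fold change of −0.98 (adjusted p = 0.00194). Windows of 250 bases before to 50 after the start site were read from RefSeq (build GRCm38.p6, another build than the mm9 of the counts). Of 55 distinct member symbols, 41 matched a window. CACGTG, which reads the same on both strands, was in the windows of 10 of the 41 and of 8.09% of 27025 genes. By call it was in 2 of 14 that fell (Eif4a1 and Eif5a), 2 of 5 that rose (Eif1b and Eif5a2) and 6 of 22 that did not pass (Eif3a, Eif3f, Eif3k, Eif4e, Eif4g1 and Eif4h). The SOX-type letters ACAAAG, searched on both strands, were in 6 of 41 members and 21.0% of all genes, and ACAATG in 4 of 41 and 14.3%. All genes here are those with a window, expressed in these cells or not, whereas the members were chosen with counts. These shares therefore compare unlike sets, and the share among expressed genes was not computed. A match is a description of the letters, and binding was not measured. In the stretches below, capitals mark CACGTG and each reads 5′ to 3′ on the gene's own strand.
Eif4a1 (chr11:69672567-69672652, minus strand): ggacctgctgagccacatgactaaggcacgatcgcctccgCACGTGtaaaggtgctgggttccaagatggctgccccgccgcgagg
Eif4g1 (chr16:20672633-20672718, plus strand): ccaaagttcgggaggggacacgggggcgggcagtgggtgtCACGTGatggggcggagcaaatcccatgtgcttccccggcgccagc
Eif5a (chr11:69921415-69921500, minus strand): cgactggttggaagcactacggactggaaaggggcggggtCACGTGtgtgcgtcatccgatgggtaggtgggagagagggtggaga
Eif5a2 (chr3:28781095-28781205, plus strand): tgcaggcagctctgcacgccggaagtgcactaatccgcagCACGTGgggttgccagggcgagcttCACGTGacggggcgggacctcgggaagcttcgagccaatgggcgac

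The box begins 189 bases before the start site in Eif4a1 and 54 before it in Eif4g1, and the 2 boxes of Eif5a2 begin 142 and 117 bases before it. Eif5a has 6 windows, and its box begins 74 bases before the start site of 1 of them and 185 bases before that of another. A second match in the window of Eif4g1 and another in a further window of Eif5a are not shown. Genes with these letters thus included the paralogs Eif5a, which fell, and Eif5a2, which rose.

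The eIF4 genes encode the parts that recognise the cap and unwind the mRNA. Of 11 tested, Eif4a1 and Eif4a3 fell, Eif4e3 rose and 8 did not pass, with a median of −0.27. These shares, 18.2% lower and 9.1% higher, were below the 20% and 23.2% of all genes. With the replicate number as a block, 6 fell and 2 rose, where 25.7% and 27% of all genes did. Eif4a1, the main eIF4A helicase gene, read 931, 793 and 823 CPM in pMIR and 632, 553 and 724 CPM in pMIR-Sox2. All controls were above all pMIR-Sox2 libraries, and the change was −0.42 ± 0.13 (adjusted p = 0.0286). The call ended with library totals only (0.0551) and without pMIR replicate 1 (0.115), pMIR replicate 3 (0.0711), pMIR-Sox2 replicate 1 (0.0606) or pMIR-Sox2 replicate 2 (0.0883), and 28.4% of its 50-base stretches are shared, chiefly with the pseudogene Eif4a-ps4. Eif4a3, a helicase of the exon junction complex and of splicing-linked mRNA surveillance, not of initiation proper, read 232, 199 and 211 CPM in pMIR and 143, 130.5 and 164 CPM in pMIR-Sox2. The groups were apart, at −0.55 ± 0.12 (adjusted p = 0.00467). Eif4a2, the second helicase paralog, read 425, 499 and 524 CPM in pMIR and 300.0, 372 and 450.2 CPM in pMIR-Sox2. The ranges overlapped, with −0.37 ± 0.16 (adjusted p = 0.0847, and 0.00499 with the replicate number as a block), and it also passed without pMIR-Sox2 replicate 3 (0.0168). Eif4b and Eif4h, cofactors of the helicase, had −0.27 ± 0.10 (adjusted p = 0.0516, and 0.0319 with the replicate number as a block) and −0.17 ± 0.11 (adjusted p = 0.231). Eif4b also passed in DESeq2 (0.00831) and in limma-voom (0.0446).

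The cap binder gene Eif4e read 129, 98.6 and 120.1 CPM in pMIR and 85.03, 85.7 and 103 CPM in pMIR-Sox2. A single pMIR-Sox2 library, replicate 3, lay above the lowest control, and the change was −0.35 ± 0.13 (adjusted p = 0.0537, and 0.00992 with the replicate number as a block). It also passed in DESeq2 (0.0463), with no filter on low counts (0.0469) and without pMIR replicate 2 (0.02) or pMIR-Sox2 replicate 3 (0.0233). Eif4e2, a cap-binding homolog that represses translation, had −0.17 ± 0.10 (adjusted p = 0.182). Eif4e3, a divergent cap-binding homolog (ENSMUSG00000093661), read 18.7, 24.9 and 17.2 CPM in pMIR and 36.5, 42.7 and 34.1 CPM in pMIR-Sox2. All pMIR-Sox2 libraries were above all controls, at 0.90 ± 0.16 (adjusted p = 0.0019). The other row named Eif4e3 was at 0.406 CPM in pMIR and 0.402 CPM in pMIR-Sox2 and was not tested. The scaffold gene Eif4g1 read 707, 575 and 622 CPM in pMIR and 612, 402 and 509 CPM in pMIR-Sox2. Replicate 1 of pMIR-Sox2 lay among the controls, with −0.32 ± 0.16 (adjusted p = 0.131, and 0.0121 with the replicate number as a block), and it also passed without pMIR-Sox2 replicate 1 (0.0378). Eif4g3, the second eIF4G scaffold, had 0.01 ± 0.11 (adjusted p = 0.945), and its sign turned in 2 of the settings that leave out a library. Eif4g2 (also DAP5), a homolog that lacks the eIF4E-binding part and serves cap-independent initiation, was the eIF4 gene of highest CPM and read 1399, 1189.6 and 1264 CPM in pMIR and 1765, 1464 and 1599 CPM in pMIR-Sox2. Its groups did not overlap, at 0.33 ± 0.12 (adjusted p = 0.0557, and 0.0124 with the replicate number as a block), and it also passed with library totals only (0.0253), in DESeq2 (0.0176), in limma-voom (0.0498) and without pMIR-Sox2 replicate 2 (0.0445).

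The eIF4E-binding proteins (4E-BPs) hold eIF4E away from eIF4G unless mTORC1 phosphorylates them. Eif4ebp1 read 117, 109.6 and 122 CPM in pMIR and 47.2, 59.6 and 82.8 CPM in pMIR-Sox2. All controls were above all pMIR-Sox2 libraries, of which replicate 3 was nearest to them. The mean went from 116 ± 6.22 to 63.2 ± 18.1 CPM (SD, n = 3), the deepest fall of any tested member, at −0.88 ± 0.18 (adjusted p = 0.00427). It passed in all 11 alternatives tried. Eif4ebp2 read 109, 111 and 103 CPM in pMIR and 126, 103 and 96.3 CPM in pMIR-Sox2, overlapping throughout, at 0.01 ± 0.12 (adjusted p = 0.954), with its sign turning in 2 of the settings that leave out a library. Eif4ebp3 had 4 to 8 counts per library and was not tested. Eif4enif1 (4E-T), which takes eIF4E into the nucleus and to sites of mRNA decay, read 251, 211 and 220.0 CPM in pMIR and 177, 152 and 196 CPM in pMIR-Sox2. The groups were apart, at −0.38 ± 0.12 (adjusted p = 0.0344). That call ended with library totals only (0.0774) and without pMIR replicate 1 (0.13), pMIR replicate 3 (0.0745), pMIR-Sox2 replicate 1 (0.0785) or pMIR-Sox2 replicate 2 (0.1).

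**Figure D4:**
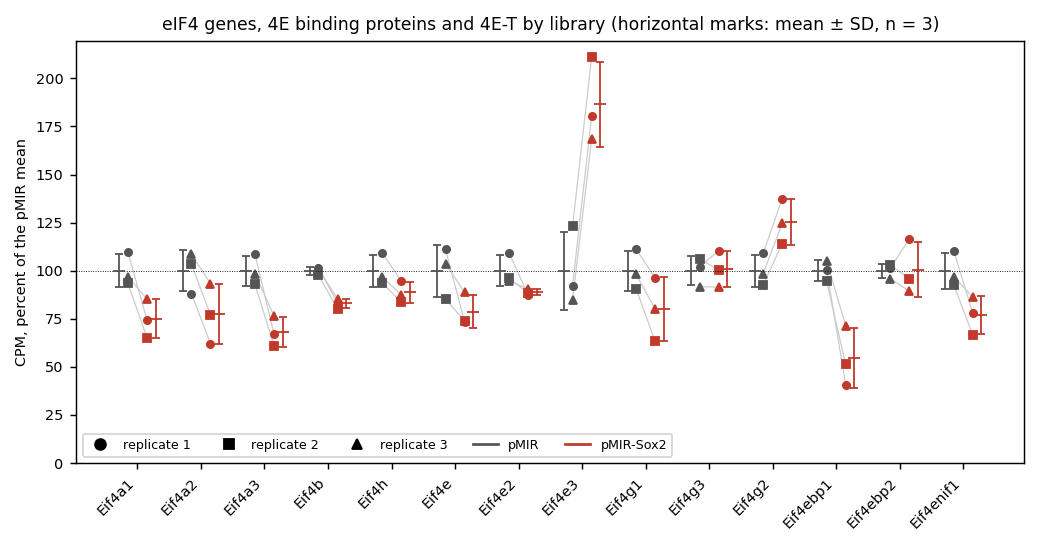
CPM by library, as a percent of the pMIR mean of each gene, for eIF4 genes, 4E-BPs and 4E-T, with lines joining libraries of the same replicate number and marks for mean ± SD (n = 3). Eif4e3 stands highest, with all pMIR-Sox2 libraries far above 100%, and Eif4ebp1 stands lowest relative to its controls, 63.2 CPM in pMIR-Sox2 against 116 CPM in pMIR.

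The remaining factors act at and after start codon selection. Eif5, which makes eIF2 hydrolyse its GTP, read 421, 449.5 and 438 CPM in pMIR and 497, 502 and 565 CPM in pMIR-Sox2. All pMIR-Sox2 libraries were above all controls, but the change of 0.26 ± 0.10 (adjusted p = 0.0722, and 0.0446 with the replicate number as a block) passed only with the block and with library totals only (0.0225) and in DESeq2 (0.0229). Eif5b, the GTPase that joins the large subunit, read 294, 332 and 331 CPM in pMIR and 371, 443 and 386 CPM in pMIR-Sox2. Again all pMIR-Sox2 libraries were higher, at 0.32 ± 0.11 (adjusted p = 0.0422). That call ended without pMIR replicate 1 (0.17), pMIR replicate 2 (0.0734), pMIR replicate 3 (0.0991) or pMIR-Sox2 replicate 2 (0.124). Eif5a carries the hypusine residue and acts mainly in elongation and termination. It was the most abundant member per kilobase of exon, at 537 CPM per kb in pMIR and 328 CPM per kb in pMIR-Sox2. It read 1480.4, 1039 and 1308 CPM in pMIR and 841, 582 and 918 CPM in pMIR-Sox2. All controls were above all pMIR-Sox2 libraries, with −0.71 ± 0.19 (adjusted p = 0.0147), and the call ended without pMIR replicate 1 (0.0633). Its paralog Eif5a2 read 19.1, 18.6 and 16.04 CPM in pMIR and 29.03, 30.7 and 22.8 CPM in pMIR-Sox2. It moved the other way, with the groups apart and 0.62 ± 0.14 (adjusted p = 0.00699), and passed in all 11 alternatives. Eif6, which keeps large subunits from joining early, read 189, 147 and 155 CPM in pMIR and 111, 101 and 121 CPM in pMIR-Sox2. The groups were apart, at −0.56 ± 0.12 (adjusted p = 0.00608), and it passed in all 11 alternatives.

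Ratios of related genes within a library do not depend on scaling between libraries, and 10 such ratios were computed on counts. With 3 libraries against 3, the smallest 2-sided exact permutation p is 0.1. That p was reached by 7 of the 10, which adjusts to 0.143, so none could pass the threshold. Ratios compare changes, since the genes differ in length. Eif5a2 over Eif5a was 0.0129, 0.0179 and 0.0123 in pMIR and 0.0346, 0.0528 and 0.0249 in pMIR-Sox2, 2.52-fold higher in the geometric mean, and all pMIR-Sox2 libraries were above all controls (exact permutation p = 0.1). Eif4e3 over Eif4e was 0.145, 0.253 and 0.143 in pMIR and 0.430, 0.499 and 0.332 in pMIR-Sox2, 2.38-fold higher and without overlap. Eif4ebp1 over Eif4e, the repressor over its target, was 0.905, 1.11 and 1.02 in pMIR and 0.555, 0.695 and 0.806 in pMIR-Sox2, 1.49-fold lower. In these 3 ratios the conditions did not overlap. Eif4ebp2 over Eif4ebp1 was 0.935, 1.01 and 0.847 in pMIR and 2.66, 1.73 and 1.16 in pMIR-Sox2, 1.88-fold higher. The pMIR-Sox2 libraries spread widely, and replicate 3 was nearest to the controls. Eif4g2 over Eif4g1 was 1.98, 2.07 and 2.03 in pMIR and 2.89, 3.64 and 3.14 in pMIR-Sox2, 1.58-fold higher, and Eif1b over Eif1 was 1.46-fold higher. Both separated the groups. Eif4a2 over Eif4a1 was 0.457, 0.629 and 0.637 in pMIR and 0.474, 0.672 and 0.621 in pMIR-Sox2. The ranges overlapped, the difference was 0.04 on the log2 scale (exact permutation p = 0.7), and its sign turned without some libraries. Eif4g3 over Eif4g1 and Eif4e2 over Eif4e also overlapped (exact permutation p = 0.3 and 0.2). Eif4ebp3 over Eif4ebp1 separated the groups too, but it rests on 4 to 8 counts of Eif4ebp3 per library.

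**Figure D5:**
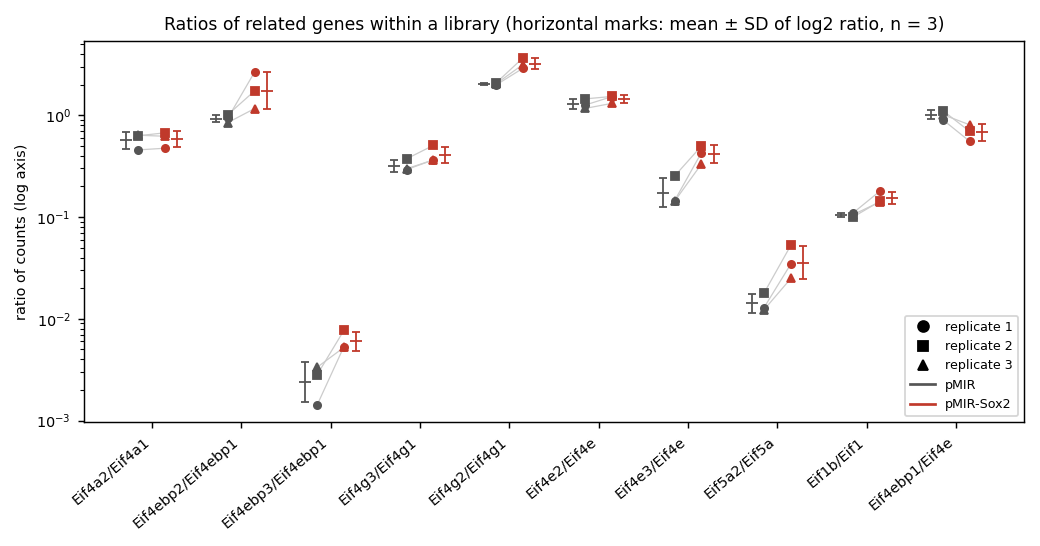
Ratio of counts of related genes within each library, on a log axis, with lines joining libraries of the same replicate number and marks for mean ± SD of the log2 ratio (n = 3). Ratios such as Eif5a2/Eif5a, Eif4e3/Eif4e and Eif4g2/Eif4g1 are higher in all pMIR-Sox2 libraries, and Eif4a2/Eif4a1 overlaps.

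The Eif2c symbols, now Ago1 to Ago4 in GENCODE, name Argonaute proteins that carry small RNAs, once filed with the initiation factors. Of 5 tested rows, Eif2c3 and Eif2c4 rose and 3 did not pass, with a median of 0.31. Over all genes, 23.2% rose. Eif2c4 read 6.56, 6.67 and 5.43 CPM in pMIR and 20.3, 21.3 and 14.1 CPM in pMIR-Sox2. Every pMIR-Sox2 library was above every control, and the change was 1.58 ± 0.19 (adjusted p = 0.000255), 2.99-fold. It was the largest change of any tested member and passed in all 11 alternatives. Eif2c3 read 14.7, 16.1 and 14.4 CPM in pMIR and 26.6, 21.4 and 18.95 CPM in pMIR-Sox2, with the groups apart and 0.57 ± 0.15 (adjusted p = 0.0124). Its call ended without pMIR replicate 3 (0.0508). Eif2c2 (ENSMUSG00000036698), the slicing Argonaute and the most abundant of them in CPM, read 133, 139.7 and 129.7 CPM in pMIR and 193, 166 and 141 CPM in pMIR-Sox2. All pMIR-Sox2 libraries were above all controls, with 0.31 ± 0.12 (adjusted p = 0.0649, and 0.0202 with the replicate number as a block), and it also passed with library totals only (0.038), with no filter on low counts (0.0468) and without pMIR-Sox2 replicate 3 (0.0107). Eif2c1 had 0.22 ± 0.10 (adjusted p = 0.106) and passed without pMIR-Sox2 replicate 3 (0.0324). The second row named Eif2c2 had 0.21 ± 0.18 (adjusted p = 0.359). Of the pseudogene symbols, Eif4a-ps4 read 12.98, 10.7 and 11.9 CPM in pMIR and 9.05, 6.65 and 9.62 CPM in pMIR-Sox2. The groups were apart, with −0.49 ± 0.18 (adjusted p = 0.0472), and the call ended with library totals only (0.0862), with no filter on low counts (0.0503) and without pMIR replicate 1 (0.152), pMIR replicate 3 (0.111), pMIR-Sox2 replicate 1 (0.0806) or pMIR-Sox2 replicate 2 (0.141). Eif3s6-ps1 had −0.13 ± 0.49 (adjusted p = 0.849), with its sign turning in 2 of the settings that leave out a library. Eif5al3-ps, with 46 counts in all and not tested, was at 0.512 CPM in pMIR and 0.168 CPM in pMIR-Sox2, with all pMIR-Sox2 libraries below all controls.

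Beside the factors, 67 other translation genes in 7 lists were tested, of which 12 rose, 19 fell and 36 did not pass, with a median of −0.14. These shares, 17.9% higher and 28.4% lower, compare with 23.2% and 20% of all genes, and with 20.05% and 26.1% of the genes at a mean of at least 50 CPM. Without pMIR replicate 1, 8 of them fell (11.9%, against 13.5% of all genes). Of 8 elongation factor genes, 2 rose, 2 fell and 4 did not pass. Eef2k, the kinase that slows elongation, rose from 17.1 ± 1.78 to 40.7 ± 16.03 CPM (SD, n = 3), a change of 1.25 ± 0.24 (adjusted p = 0.00348), and Eefsec, which delivers selenocysteine tRNA, had 0.43 ± 0.11 (adjusted p = 0.0139). Eef1e1, a partner of tRNA synthetases, had −0.64 ± 0.16 (adjusted p = 0.0115), and Eef1d, an exchange factor of eEF1A, had −0.35 ± 0.12 (adjusted p = 0.0368). The call of Eefsec ended without pMIR replicate 2 (0.0531) or pMIR-Sox2 replicate 1 (0.0507), that of Eef1e1 without pMIR replicate 1 (0.0507) or pMIR-Sox2 replicate 1 (0.053), and that of Eef1d with library totals only (0.0826) and without pMIR replicate 1 (0.132), pMIR replicate 3 (0.101), pMIR-Sox2 replicate 1 (0.0912) or pMIR-Sox2 replicate 2 (0.108). Of 9 termination and recycling genes, 5 fell and 4 did not pass. Abce1, which splits ribosomes after termination, fell from 263 ± 10.03 to 173 ± 30.9 CPM (SD, n = 3), a change of −0.61 ± 0.13 (adjusted p = 0.00579), and Pelo, which rescues stalled ribosomes, had −0.65 ± 0.16 (adjusted p = 0.00877). With the block 2 of that list rose. Of 9 poly(A)-binding proteins and partners, 3 rose and 6 did not pass. Paip2, which takes the poly(A)-binding protein off mRNA, rose from 141 ± 8.14 to 276 ± 31.9 CPM (SD, n = 3), a change of 0.97 ± 0.11 (adjusted p = 0.000246), and Paip1, which stimulates initiation, rose from 60.6 ± 3.50 to 111 ± 22.1 CPM (SD, n = 3), a change of 0.88 ± 0.14 (adjusted p = 0.00127). With the block 3 of these genes fell.

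The counts of the remaining lists stand beside 23.2% of all genes that rose and 20% that fell. Of 15 initiation helpers and repressors not named Eif, 2 rose, 5 fell and 8 did not pass. Pdcd4, an inhibitor of eIF4A, rose from 62.02 ± 5.39 to 81.1 ± 11.5 CPM (SD, n = 3), a change of 0.39 ± 0.12 (adjusted p = 0.0318), and Mknk2, a kinase of eIF4E, fell from 673 ± 44.98 to 426 ± 61.5 CPM (SD, n = 3), a change of −0.66 ± 0.13 (adjusted p = 0.00348). The helicase Dhx29, which helps scanning through structure, had 0.45 ± 0.10 (adjusted p = 0.00694), and Abcf1, a partner of eIF2, had −0.52 ± 0.12 (adjusted p = 0.00646). The call of Pdcd4 ended without pMIR replicate 1 (0.128), pMIR replicate 2 (0.0509), pMIR replicate 3 (0.0675) or pMIR-Sox2 replicate 2 (0.0966). Of 9 eIF2 kinases and phosphatase regulators, 1 rose, 2 fell and 6 did not pass, among them all 4 kinases. Ppp1r15a (GADD34), which directs a phosphatase to eIF2, fell from 309 ± 29.1 to 141 ± 67.4 CPM (SD, n = 3), a change of −1.14 ± 0.28 (adjusted p = 0.0109), and its constitutive counterpart Ppp1r15b had −0.42 ± 0.11 (adjusted p = 0.0149). Nck1, an adaptor protein, rose by 1.28 ± 0.18 (adjusted p = 0.000573). The call of Ppp1r15a ended with no filter on low counts (0.119) and without pMIR-Sox2 replicate 2 (0.0654), and that of Ppp1r15b without pMIR replicate 1 (0.0677). Of 15 mTORC1 and S6 kinase genes, 4 rose, 4 fell and 7 did not pass. Rragd, a GTPase that brings mTORC1 to lysosomes, rose from 3.88 ± 1.30 to 40.6 ± 11.95 CPM (SD, n = 3), a change of 3.40 ± 0.28 (adjusted p = 4.97e-05), and Rps6ka3, a kinase of the RSK family, rose from 31.5 ± 2.59 to 121 ± 22.1 CPM (SD, n = 3), a change of 1.94 ± 0.15 (adjusted p = 3.32e-05). In the other direction, Rps6ka1, also of that family, had −0.71 ± 0.10 (adjusted p = 0.000463) and Akt1s1, an inhibitor of mTORC1, had −0.39 ± 0.11 (adjusted p = 0.016), a call that ended without pMIR replicate 1 (0.0714), pMIR replicate 3 (0.0586) or pMIR-Sox2 replicate 1 (0.0549). Of the 2 enzymes that make the hypusine of eIF5A, Dohh fell from 47.2 ± 5.41 to 34.2 ± 3.35 CPM (SD, n = 3), a change of −0.47 ± 0.12 (adjusted p = 0.0135), and Dhps did not pass. The call of Dohh ended without pMIR replicate 1 (0.0606).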

How the data were processed

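Total RNA of 3 pMIR and 3 pMIR-Sox2 libraries was used, with groups and replicate numbers from the sample titles. The deposited values are unnormalised counts, 1 column per library and 1 line per Ensembl gene. Per the submitters' processing notes, the authors made these counts with HTSeq 0.6.1p1, TopHat2 2.0.11, Trimmomatic 0.32, SAMtools 0.1.19 and Bowtie2 2.2.2 on the mm9 genome. The sources used here give neither the strand setting nor the gene annotation's release, so reads of overlapping antisense genes cannot be told apart from a member's own. Lines that name no gene held 46.8 to 48.1% of the reads and stayed out of library sizes and tests. Gene counts were 17153805 to 27692437 per library.

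The members and lists were chosen with earlier results of these data known. Genes were filtered with filterByExpr, scaled with TMM and tested with the edgeR 4.0.16 quasi-likelihood test in R 4.3.3, comparing pMIR-Sox2 with pMIR. P-values were adjusted over all tested genes by Benjamini-Hochberg, with 0.05 as the threshold. The test was run on simulated data first. CPM are counts over the filtered library size times the TMM factor, with SD over n = 3. The error after a log2 fold change is its SE, obtained by dividing its absolute value by the square root of the F statistic. Ratios of counts used an added 0.5 and a 2-sided exact permutation test. Library values are given for up to 4 members per complex with the smallest adjusted p past the threshold and for the member of highest CPM. A few further members (Eif1ax, Eif3b, Eif4a2, Eif4e, Eif4g1, Eif4ebp2, Eif5) were given so after their values were seen, as paralogs or partners of those. Of the other translation genes, up to 2 per list and direction are named.

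Same-numbered libraries share a second number in the descriptions (8, 9 or 12). Over genes, their deviations from the group means correlated at 0.24, 0.36 and 0.19, against −0.24 to 0.03 for other pairings. Deviations cancel out within a group, so these correlations are not independent of one another. The numbers were taken to pair the samples. The main test leaves this pairing out, and the replicate block takes it in. Replicates of a group differed by more than sampling noise. Exon lengths and shared 50-base stretches came from GENCODE M21 (55 of 57 identifiers matched), which is on another build than mm9 and gave no coordinates. Alternatives were library totals, DESeq2 1.42.0, limma-voom (limma 3.58.1), no filter, the replicate block and leaving out each library.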

Additional observations from a re-analysis of the deposited data

How the results depend on the processing

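With library totals only, 13 members fell (24.1%), against 15.96% of all genes. By complex the falls were 6 for eIF3, 2 for eIF2B and 1 each for eIF1, eIF4, 4E-BPs and 4E-T, eIF5 and eIF6. They were 0 for eIF2 (1 at an unadjusted p under 0.05) and 0 for pseudogenes (1 unadjusted), against 1 each in DESeq2 and limma-voom. With library totals 2 eIF4 genes rose. Eif3m then had 0.023 on the log2 scale. In DESeq2, 4 eIF4 genes fell and 2 rose, and in limma-voom 2 rose. The shares of all genes were 20.3% lower and 23.4% higher in DESeq2, and 23.1% higher in limma-voom. With the replicate number as a block, 2 eIF2 genes and 6 eIF4 genes fell and 2 eIF4 genes rose. The block added 7 falls and 3 rises over all members, given beside each gene, and changed no other member's call.

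Leaving out each library in turn gave 11 to 23 falls over the members and 8 to 20 over other translation genes. The whole table moved as well, with 13.5% to 21.7% of all genes lower and 17.9% to 25.0% higher. By complex the falls were 5 to 7 for eIF3, 2 to 4 for eIF2B, 1 to 2 for eIF1, 0 to 2 for eIF2 and 1 to 4 for eIF4. They were 1 to 2 for 4E-BPs and 4E-T, 0 to 1 for eIF5, 1 throughout for eIF6 and 0 to 1 for pseudogenes. Rises were 1 to 4 for the Argonaute symbols, 1 to 2 for eIF4 and 1 to 2 for eIF5. Signs turned in these settings for Eif4ebp2 (−0.10 to 0.10), Eif3e (−0.15 to 0.024), Eif3m (−0.14 to 0.073), Eif4g3 (−0.053 to 0.084), Eif3s6-ps1 (−0.50 to 0.31) and the ratio of Eif4a2 to Eif4a1 (−0.12 to 0.19), all log2. Where fewer samples were fitted the spread was estimated from fewer libraries, and otherwise the cause was not tested. Counts of members called higher or lower moved by at most 1.5 times in DESeq2, limma-voom and with no filter. With 3 libraries a group, changes near the size of the SE were not detectable. Changes well above the SE could miss the threshold too, such as Eif4e at −0.35 ± 0.13 (adjusted p = 0.0537 in the edgeR test).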

Other observations

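Over the 54 tested members, the libraries of a group did not rank alike. In pMIR, replicate 1 held the highest CPM for 31 members and replicate 2 the lowest for 27. In pMIR-Sox2, replicate 3 held the highest CPM for 31 members, replicate 2 the lowest for 26 and replicate 1 the lowest for 20.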
